A study of Mus musculus with 9 samples.

Results

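This account describes 10 mouse genes known for detained introns (Rsrp1, Leng8, Clk1, Clk4, Ccnl1, Ccnl2, Luc7l3, Pnisr, Rbm25 and Ddx5) in thymocytes with and without the splicing factor SRSF1. They were found by gene symbol among the 53715 rows of the deposited RNA-seq count table. Each symbol matched 1 Ensembl gene ID, and all 10 were among the 17351 genes that passed the filter on low counts. The set was chosen from known biology and also selected on the contrast of SRSF1KO with WT, in which Rsrp1 and Leng8 had been called higher. For that reason the fold changes of the 10 genes are descriptions, and no test over the set is given.

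The series compared WT C57BL/6 mice with SRSF1KO mice of the genotype Srsf1fl/flLckcre/+, which carry floxed Srsf1 alleles and Cre recombinase from Lck, a gene of the T cell lineage. Animals of both groups were 6 to 8 weeks old, and thymocytes were sorted by flow cytometry as TCRβ+ CD69+ CD24+ CD4+ CD8+ cells. Smart-seq2 libraries came from 3 WT and 2 SRSF1KO samples. The labels name no Cre allele for WT, and they do not say whether replicates are separate animals, so errors and p-values here measure only the spread between these 5 samples. A further 4 CLIP-seq samples were not analysed here.

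A detained intron stays in a transcript that is already polyadenylated, and such transcripts are kept in the nucleus until the intron is spliced out or the RNA is degraded. Genes for splicing regulators are rich in such introns, among them those for the CLK kinases, which phosphorylate SR proteins such as SRSF1. Changes in SR protein activity can thereby feed back on how much mature mRNA of these genes is made. Counts per gene do not separate fully spliced from intron-containing transcripts, so the values below show no intron. In bulk samples, fewer cells of a type and less RNA per cell cannot be told apart.

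Rsrp1 and Leng8 are shown first by the DNA before their start sites, since they were the 2 members called higher. Both stretches come from RefSeq (GRCm38.p6, of which mm10 is the UCSC name) and end at the base before the outermost start of the gene. Rsrp1 spans 3746 bases of chromosome 4, and Leng8 spans 11165 bases of chromosome 7. The stretches lie at chr4:134923375-134923624 and chr7:4136806-4137012, both on the plus strand. Capitals mark matches on either strand to the motifs listed after the sequences.
Rsrp1: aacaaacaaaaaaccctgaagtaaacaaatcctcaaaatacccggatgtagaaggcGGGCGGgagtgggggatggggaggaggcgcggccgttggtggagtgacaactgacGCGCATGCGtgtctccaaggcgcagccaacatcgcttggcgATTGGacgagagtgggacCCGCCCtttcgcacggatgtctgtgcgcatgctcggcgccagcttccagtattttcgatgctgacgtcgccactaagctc
Leng8: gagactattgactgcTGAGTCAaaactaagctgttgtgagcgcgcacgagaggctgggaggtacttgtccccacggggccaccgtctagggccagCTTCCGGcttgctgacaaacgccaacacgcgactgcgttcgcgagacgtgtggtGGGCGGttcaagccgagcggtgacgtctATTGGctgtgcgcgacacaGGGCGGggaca

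For Leng8, distances count from the RefSeq start used for its window, at 4137056, which lies inside the outermost span. A CCAAT box (CCAAT) began 98 bases before the start of Rsrp1 and 73 bases before that of Leng8, in both cases on the minus strand, and both stretches held GC boxes (GGGCGG). The sequence of Rsrp1 also held an NRF1 motif (GCGCANGCG) 139 bases before the start. That of Leng8 held an ETS motif (CCGGAAG) 155 bases and an AP-1 motif (TGANTCA) 235 bases before that start, and a second window of Leng8, not shown, held NRF1 matches at 183, 182 and 129 bases. Over 32851 RefSeq windows of 250 bases before a start, 33.8% held a CCAAT box, 32.7% a GC box, 5.16% the NRF1 motif, 6.91% the ETS motif and 6.75% the AP-1 motif. Matches of the CCAAT box and the GC box are therefore common in promoters. Of the 11 windows listed for 8 of the members, 4 held a CCAAT box and 8 a GC box. The cyclic AMP response element TGACGTCA stood in those of Ccnl1 and Clk4, against 1.55% of all windows. The other motifs searched were the TATA box (TATAAA), the E-box (CACGTG), the interferon response element (GAAANNGAA) and CTCGCGAGA, and none of these 4 matched in the stretches shown. Clk1 and Pnisr had no window.

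The libraries held between 36026006 and 38985285 counts, and the TMM scaling factors lay between 0.988 and 1.02, so scaling moved levels little. Levels are in CPM, the usual depth-scaled count, with the scaled library size as the depth. Srsf1, the targeted gene, fell from 96.9, 122.7 and 103.1 CPM in the WT libraries to 42.6 and 30.9 CPM in those of SRSF1KO (log2 fold change −1.55 ± 0.19, edgeR adjusted p = 0.0483). That call was lost in edgeR with DESeq2's size factors, with the replicate number as a block and without any 1 WT library. The 12 genes of the sort gate and T cell identity summed to 13606 to 14912 CPM in WT and 13879.5 and 15491 CPM in SRSF1KO. Of these, Cd4 stood at 0.45 ± 0.11 and Cd3g at −0.29 ± 0.10 (log2 fold change ± SE), and neither was called in edgeR. Cd4 was called higher by DESeq2 (beside 383 genes in all), without a filter (198) and over genes averaging 5 CPM or more (143). Among markers of other cells edgeR called 0 under the filter used here. Without a filter it called Hba-a2, Hbb-bt and Trdc higher and Nkg7 lower. Over genes averaging 5 CPM or more it called only Nkg7. DESeq2 called Hba-a2, Hbb-bt and Trdc higher and Nkg7 and Klrd1 lower (these markers and Gm26917 were named after their values were seen). Among the other cell types, erythroid markers summed to 2.54 to 12.7 CPM over the WT libraries and to 22.9 and 99.1 CPM over the SRSF1KO libraries. Of the 5 tested, 4 stood above all WT libraries in both. NK and γδ T cell markers summed to 223.8 to 245.4 CPM (WT) against 108.7 and 124.3 CPM (SRSF1KO), but the list did not move one way. The cytotoxic granule gene Nkg7, the largest part of the WT sum, had 165.9 to 186.6 CPM in WT and 24.97 and 55.2 CPM in SRSF1KO. Trdc, the δ chain constant gene, had 27.5 to 32.1 CPM and then 56.9 and 43.9 CPM. B cell markers (31.7 to 52.3 CPM in WT, 48.7 and 50.03 CPM in SRSF1KO) overlapped. Myeloid and dendritic markers were at 105.9 to 131.9 CPM in WT and at 136.4 and 141.4 CPM in SRSF1KO. Markers of stroma and epithelium summed to 166.6 to 207.8 CPM (WT) and 204.1 and 215.0 CPM (SRSF1KO). Of that sum Pecam1 alone, named after its values were seen, was 151.4 to 193.3 CPM (WT) and 178.3 and 200.7 CPM (SRSF1KO). Each marker found in the count table had at least 1 count in some library; Trgc1 was not matched. The 10 most abundant genes took 6.77% to 8.27% of the counts in WT and 9.92% and 10.2% in SRSF1KO. Gm26917, a predicted gene, alone took 1.84% to 2.98% in WT and 4.14% and 4.47% in SRSF1KO. The part of these differences in the members' values was not tested.

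Rsrp1 and Leng8 rose in SRSF1KO by about the same factor. Rsrp1 (ENSMUSG00000037266.18, chromosome 4, 134923625 to 134927370) encodes an arginine- and serine-rich protein whose function is little studied. In the order of the replicate numbers, its level was 815, 756 and 816 CPM for WT, then 1267 and 1175 CPM for SRSF1KO. All WT libraries lay close together, and both SRSF1KO libraries stood far above them. The means were 795.7 ± 34.3 CPM (SD, n = 3) and 1221 ± 65.3 CPM (SD, n = 2). That is 1.53-fold, or 0.62 ± 0.08 (SE) as a log2 fold change.

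Leng8 (ENSMUSG00000035545.13, chromosome 7, 4137013 to 4148177) was measured at 230.5, 219 and 213 CPM in WT and at 377 and 351 CPM in SRSF1KO, again without overlap and with SRSF1KO replicate 1 the higher of the pair. Mean levels were 220.9 ± 8.72 CPM (SD, n = 3) and 363.9 ± 18.2 CPM (SD, n = 2). The difference was 1.65-fold, with a log2 fold change of 0.72 ± 0.09 (SE). These 2 genes are the members that passed the quasi-likelihood test of edgeR over all genes, each with an adjusted p of 0.0483. Of all 17351 genes tested, 0.0519% were called higher and 0.213% lower at an adjusted p under 0.05. Since these calls chose the pair, nothing is read from the count of 2 called members against that share. No member was called lower in edgeR under the filter used here. There 1 member, Ccnl2, had a negative fold change at an unadjusted p under 0.05, beside 1466 of all 17351 tested genes. DESeq2 called Ccnl2 lower, beside 633 of all 17351 tested genes. The calls of Rsrp1 and Leng8 were lost without any 1 of WT replicates 1, 2 and 3 (adjusted p = 0.172 to 0.220) or SRSF1KO replicate 1 (adjusted p = 0.145 and 0.143), at log2 fold changes of 0.56 to 0.76. They were also lost with DESeq2's size factors in edgeR (adjusted p = 0.0515 for both).

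Rbm25 lay just outside the threshold. This gene (ENSMUSG00000010608.15, chromosome 12, 83632208 to 83683127) encodes an RNA-binding protein with an arginine- and glutamate-rich region that takes part in splice site choice. Its levels were 285, 279 and 263 CPM in WT and 408 and 444 CPM in SRSF1KO. Both SRSF1KO libraries stood above every WT library, here with replicate 2 the higher. The log2 fold change of 0.63 ± 0.09 (SE; 1.55-fold) was about that of Rsrp1, while the adjusted p was 0.0568. Rbm25 was called higher with DESeq2, with limma-voom and under both other filters on low counts. Genes called higher numbered 383 with DESeq2, 23 with limma-voom, 198 without a filter and 143 over genes averaging 5 CPM or more. The fit used here called 9. Rbm25 was not called with other scalings, with the replicate number as a block, with a sex term or without any 1 WT library.

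**Figure D1:**
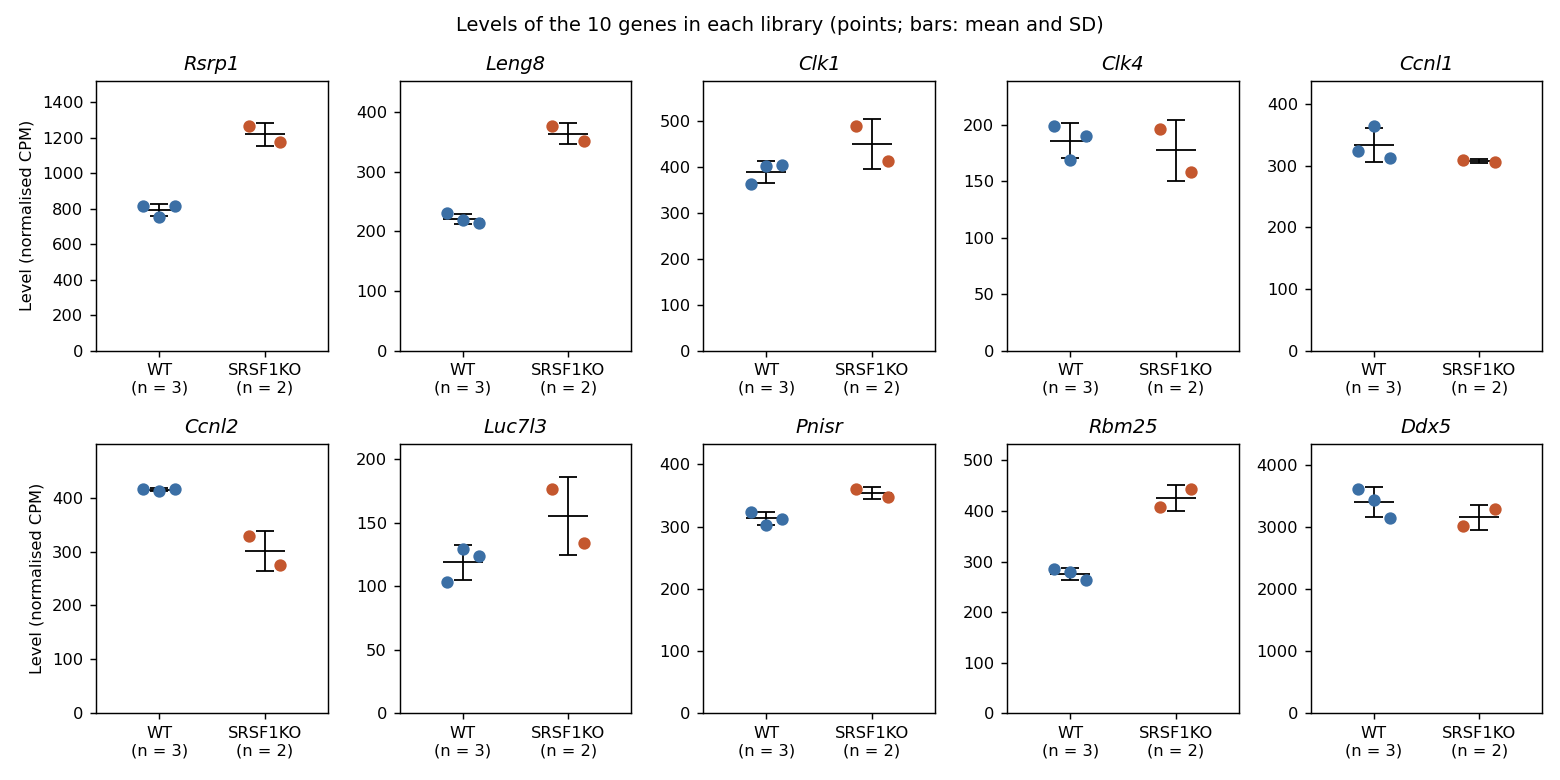
Level in normalised CPM (vertical axis, from 0) of each of the 10 genes in the 3 WT libraries (blue points) and the 2 SRSF1KO libraries (orange points), with the mean and SD of each group as bars. Rsrp1, Leng8 and Rbm25 show SRSF1KO points well above the WT points, Ccnl2 shows them below, and the points of Clk4 and Ddx5 overlap.

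Among the SR protein kinases, the paralogs Clk1 and Clk4 had fold changes on different sides of 0. Clk1 (ENSMUSG00000026034.17, chromosome 1, 58411988 to 58424088) had 363, 402 and 405 CPM in WT, against 489.9 and 412 CPM in SRSF1KO. The SRSF1KO libraries were above WT, but replicate 2 only barely so. Clk4 (ENSMUSG00000020385.16, chromosome 11, 51263114 to 51281770) was at 199, 168 and 190.2 CPM in WT and 196 and 158 CPM in SRSF1KO, and the groups overlapped. Their log2 fold changes were 0.21 ± 0.11 and −0.07 ± 0.13 (SE), and neither passed the test. Both kinases were lower in SRSF1KO replicate 2 than in replicate 1. The ratio of Clk1 to Clk4 counts within a library, which no scaling between libraries can alter, was 1.82, 2.38 and 2.13 in WT and 2.50 and 2.61 in SRSF1KO. Clk2 stood at 19.5 ± 4.12 and 24.7 ± 0.956 CPM and Clk3 at 258.9 ± 12.03 and 295.0 ± 94.6 CPM (SD, n = 3 and n = 2), and neither was called. Of the 13 other kinases and partners of SR proteins tested, edgeR called 0 under the filter used here. Under both other filters on low counts it called Srpk1 lower, as did DESeq2. Genes called lower numbered 346 without a filter, 233 over genes averaging 5 CPM or more and 633 with DESeq2. An unadjusted p under 0.05 in edgeR was found for 4, beside 2490 of all 17351 tested genes. Srpk1, a cytoplasmic SR protein kinase, was at 223, 207 and 209 CPM in WT and at 132 and 154 CPM in SRSF1KO (log2 fold change −0.58 ± 0.11, edgeR adjusted p = 0.0964). Its relative Srpk2 had a log2 fold change of 0.33 ± 0.11 (SE).

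The cyclins L, which partner the CDK11 kinases and sit with splicing factors in nuclear speckles, both had negative fold changes. Ccnl2 (ENSMUSG00000029068.16, chromosome 4, 155810219 to 155824543) stood at 416, 412 and 416 CPM in WT and at 328 and 275 CPM in SRSF1KO. Its WT libraries were the closest of any member, with a coefficient of variation of 0.657%, and both SRSF1KO libraries lay below them. The log2 fold change of Ccnl2 was −0.46 ± 0.10 (SE, 0.726-fold), which did not pass the test in edgeR under the filter used here. Ccnl2 was called lower with DESeq2 and without the filter on low counts, where 633 and 346 genes in all were called lower. Ccnl1 (ENSMUSG00000027829.15, chromosome 3, 65945908 to 65962029) was at 323, 364 and 312 CPM in WT and 309 and 305 CPM in SRSF1KO. The gap below the lowest WT library was small beside the WT spread, and its log2 fold change was −0.12 ± 0.10 (SE). Counts of Ccnl1 over those of Ccnl2 were 0.775, 0.885 and 0.750 in WT and 0.944 and 1.11 in SRSF1KO. Of 14 other cyclins and kinases of transcription edgeR called 0, and DESeq2 called Ccnt2 higher, beside 383 of all 17351 tested genes. An unadjusted p under 0.05 in edgeR was found for 4, beside 2490 of all 17351 tested genes. Ccnt2, a cyclin of the elongation factor P-TEFb, stood at 0.32 ± 0.09 and Ccnq at −0.62 ± 0.19 (log2 fold change ± SE).

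Luc7l3 and Pnisr stood somewhat higher without passing the test. Luc7l3 (ENSMUSG00000020863.15, chromosome 11, 94291073 to 94322329), related to a yeast U1 snRNP protein that helps select the 5′ splice site, was at 103, 129 and 124 CPM in WT and 177 and 134 CPM in SRSF1KO. Replicate 2 of SRSF1KO exceeded WT replicate 2 by little, so the mean leans on replicate 1. Without SRSF1KO replicate 1 the log2 fold change of Luc7l3 went from 0.39 ± 0.15 (SE) to 0.17, and without replicate 2 to 0.59. Its paralogs Luc7l and Luc7l2 stood at −0.19 ± 0.10 and 0.23 ± 0.18 (log2 fold change ± SE), neither called. Counts of Luc7l3 over those of Luc7l2 were 3.00, 2.77 and 3.12 in WT and 3.49 and 3.04 in SRSF1KO, with overlap. Pnisr (ENSMUSG00000028248.15, chromosome 4, 21846657 to 21876475) encodes a serine/arginine-rich protein that binds pinin. It was at 323, 303 and 313 CPM in WT and 361 and 348 CPM in SRSF1KO, with a log2 fold change of 0.18 ± 0.09 (SE). The groups of Pnisr did not overlap, though the shift was small.

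Ddx5 was the only helicase among the members and held 43.5% to 54.2% of their raw counts. This DEAD-box RNA helicase gene (ENSMUSG00000020719.14, chromosome 11, 106780355 to 106789185) stood at 3614, 3433 and 3134 CPM in WT and 3010.1 and 3291 CPM in SRSF1KO. The groups overlapped, and the log2 fold change was −0.11 ± 0.09 (SE). Its paralog Ddx17 had 143.7 ± 9.12 CPM in WT and 169.2 ± 4.01 CPM with SRSF1KO (SD, n = 3 and n = 2; log2 fold change 0.24 ± 0.10, edgeR adjusted p = 0.355). The ratio of Ddx5 to Ddx17 counts was 24.6, 22.8 and 23.5 in WT and lower in SRSF1KO, at 17.5 and 19.8. Cep95, whose RefSeq span shares 546 bases with that of Ddx5, had 1780 to 2370 raw counts in WT and 2728 and 1811 in SRSF1KO, against 108497 or more for Ddx5. BC049762, which shares 549 bases with Clk4, had at most 6 counts. The strand setting of the counting was not stated in the labels or notes, and reads from these shared stretches are uncertain.

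**Figure D2:**
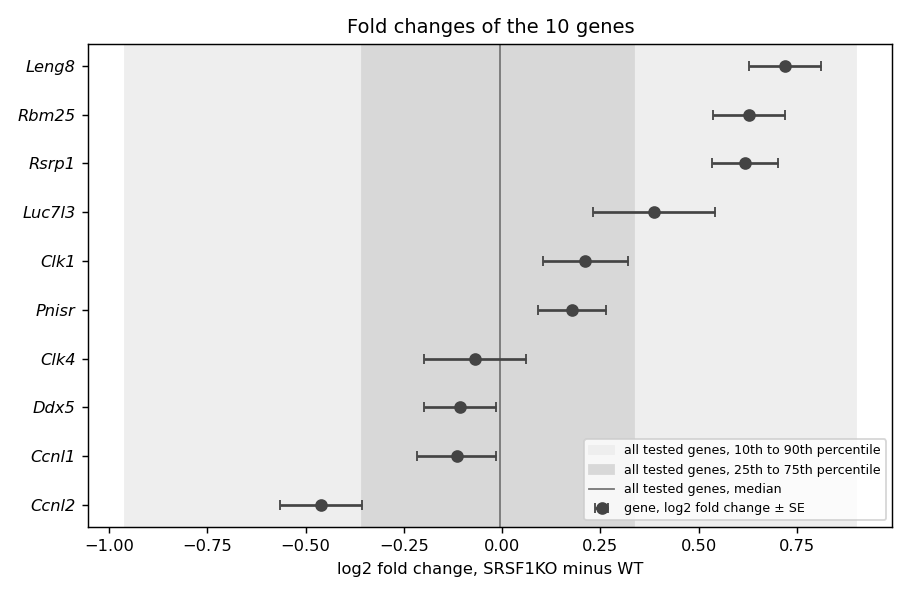
The log2 fold change of SRSF1KO minus WT (horizontal axis) with its SE for each of the 10 genes, over shaded bands for all 17351 tested genes. Leng8, Rbm25, Rsrp1 and Luc7l3 lie above the 75th percentile of all genes (0.34), Ccnl2 lies below the 25th (−0.36), and every member lies inside the band from the 10th to the 90th percentile.

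Across the set there was no common direction. Of the 10 members 6 were positive and 4 negative in log2 fold change, and their median was 0.19 beside −0.01 over all genes tested. Both SRSF1KO libraries lay above all WT libraries for 6 members and below them for 2, Ccnl1 and Ccnl2. Over all tested genes 15.2% lay above and 17.8% below in that sense, and because the same contrast entered the choice of members nothing is read from the counts. The folds themselves were moderate: 84.9% of tested genes had a lower log2 fold change than Rsrp1 and 87.0% a lower one than Leng8. Larger fold changes were thus frequent among all tested genes, most of which were less abundant than the members. The members' WT coefficient of variation had a median of 5.19% (range 0.657% to 11.4%), against 12.5% over the 9932 tested genes of at least 5 CPM. The members were also abundant, and 90.4% of tested genes had a lower mean than the lowest of them, Luc7l3.

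Together the 10 genes took 0.680%, 0.645% and 0.611% of all counts in the WT libraries and 0.693% and 0.683% in the SRSF1KO libraries. Without Ddx5 the shares were 0.312%, 0.302% and 0.302% in WT and 0.392% and 0.357% in SRSF1KO. The summed share of the other 9 was thus higher in both SRSF1KO libraries, a sum that includes the pair whose rise chose the set. Without Ddx5, Rsrp1 and Leng8 the share was 0.205%, 0.205% and 0.1998% in WT and 0.227% and 0.206% in SRSF1KO, where replicate 2 was level with WT. Ratios of counts were also taken within a library. Rsrp1 relative to Ccnl2 was 1.96, 1.84 and 1.96 in WT and 3.87 and 4.28 in SRSF1KO, a 2.12-fold difference between the group means. That ratio sets a member selected as higher against the member with the most negative fold change. It restates their fold changes and adds nothing to them. Rsrp1 relative to Leng8 was 3.54, 3.45 and 3.82 in WT and slightly lower in SRSF1KO, at 3.36 and 3.35. Rbm25 relative to Rbm39, another RNA-binding splicing factor with retained introns, was 0.277, 0.275 and 0.271 in WT and 0.418 and 0.429 in SRSF1KO. Rbm39, named after its values were seen, had a log2 fold change of 0.00 ± 0.08 (SE, edgeR adjusted p = 0.998). The ratio of Rbm25 to Rbm39 therefore restates the fold change of Rbm25.

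**Figure D3:**
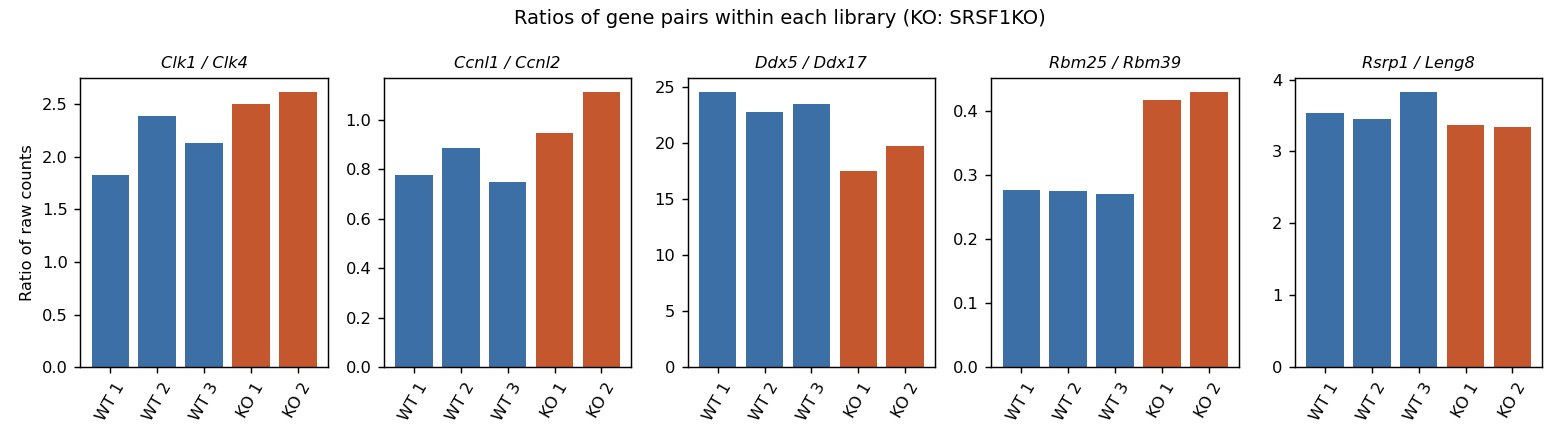
Ratio of raw counts of 5 gene pairs (bars, vertical axes from 0) in each WT (blue) and SRSF1KO (orange) library. Clk1 to Clk4, Ccnl1 to Ccnl2 and Rbm25 to Rbm39 are higher in both SRSF1KO libraries, and Ddx5 to Ddx17 is lower. Rsrp1 to Leng8 is slightly lower in both, within 3.35 to 3.82 over all libraries. The ratio of Luc7l3 to Luc7l2, whose groups overlapped, is not drawn.

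Rsrp1, Leng8 and Rbm25 had similar profiles over the 5 libraries. Likeness was measured as the root mean square difference of log2 CPM after centring each gene on its mean, with a smaller value for more similar genes. Between Rsrp1 and Leng8 it was 0.070. Of 9930 other genes of at least 5 CPM, 5 lay nearer to Leng8 than Rsrp1 did, and 11 nearer to Rsrp1 than Leng8 did. Rbm25 was at 0.086 from Leng8, with 13 genes nearer, and at 0.097 from Rsrp1, with 45 genes nearer. Ccnl2 was the farthest member from both, at 0.58 and 0.53. The 5 named genes nearest to Rsrp1 were Rbbp5, a subunit of histone H3 lysine 4 methyltransferases, Pcmtd2, Trim59, Adss and the importin gene Kpna2, at 0.030 to 0.060. Those nearest to Leng8 were Ska2 and Spdl1, both of chromosome segregation, Sh3bgrl, Rell1 and Rsrp1, at 0.040 to 0.070. Rbbp5 stood at 72.4, 67.4 and 69.7 CPM in WT and at 109.3 and 99.3 CPM in SRSF1KO, and Ska2 at 32.6, 32.6 and 30.7 CPM and at 51.5 and 49.5 CPM. Apart from Rsrp1, none of these neighbours passed the test. With 5 libraries in 2 groups, a gene with a like fold change and a small spread has a like profile. Rsrp1 and Leng8 were selected on such a change, so nothing is read from their likeness.

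The libraries fell into a male and a female pattern by the Y-linked gene Ddx3y, with WT replicate 2 and SRSF1KO replicate 1 of the male pattern. Within the male pattern (1 library of each group) the log2 difference of SRSF1KO minus WT was 0.74 for Rsrp1, 0.78 for Leng8 and 0.55 for Rbm25. Within the female pattern (1 SRSF1KO and 2 WT libraries) it was 0.53, 0.66 and 0.70. Ccnl2 was at −0.33 and −0.60. These 4 genes kept their sign within each pattern, as did Clk1, Ccnl1, Luc7l3, Pnisr and Ddx5. For all of these but Ddx5, both SRSF1KO libraries lay on the same side of all WT libraries. Their sign within a pattern was therefore fixed in advance, and nothing further is read from it. Clk4, whose groups overlapped, did not keep its sign, at 0.22 in the male and −0.30 in the female pattern. With the pattern as a term in edgeR neither Rsrp1 nor Leng8 was called (adjusted p = 0.105 and 0.101), at log2 fold changes of 0.62 and 0.71.

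**Figure D4:**
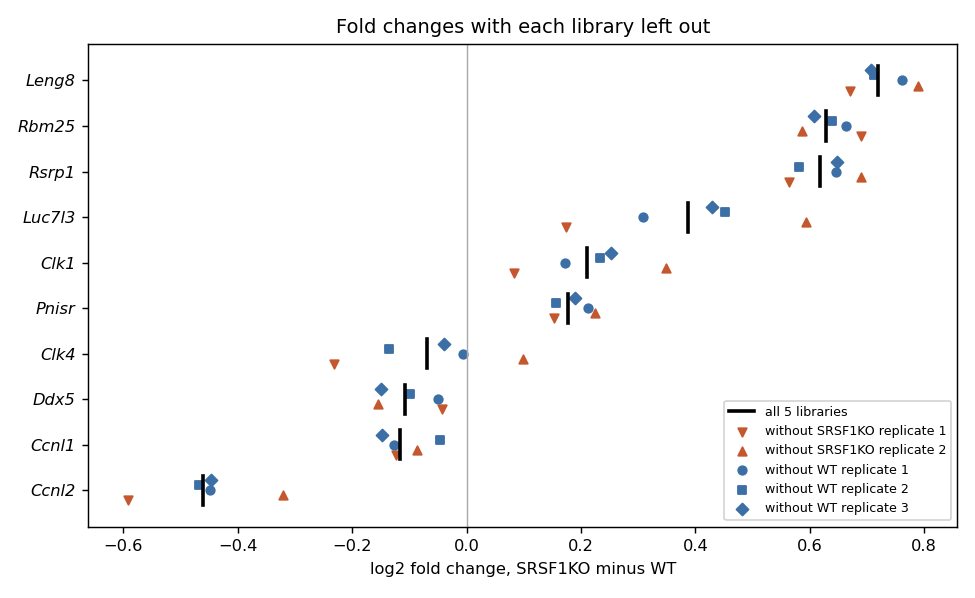
The log2 fold change of each of the 10 genes (horizontal axis) with all 5 libraries (black bars) and with each library left out in turn (orange symbols for SRSF1KO, blue for WT). Leng8, Rbm25 and Rsrp1 keep values between 0.56 and 0.79 in all 5 cases, and Clk4 crosses 0.

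Genes around the members were taken from lists, with members removed. Under the filter used here, none of the lists below but that of the SR proteins held a gene called by edgeR. Under both other filters on low counts edgeR also called Ogt and Neat1 higher and Dnajb1 lower. The counts at an unadjusted p under 0.05 and by DESeq2 are given beside each list. Over all 17351 tested genes, 2490 had an unadjusted p under 0.05 in edgeR, and DESeq2 called 383 higher and 633 lower. Of 23 other genes listed as retaining introns, most of them for RNA processing, 14 had a positive and 9 a negative fold change (median 0.09), 3 had an unadjusted p under 0.05, and DESeq2 called Ogt higher. Ogt, the O-GlcNAc transferase whose own detained intron responds to O-GlcNAc levels, had 650.1 ± 88.5 CPM in WT and 906.0 ± 77.1 CPM with SRSF1KO (SD, n = 3 and n = 2; log2 fold change 0.48 ± 0.13, edgeR adjusted p = 0.164). Arglu1, an arginine- and glutamate-rich splicing regulator, stood at 148.3 ± 12.3 and 116.4 ± 3.69 CPM (−0.35 ± 0.11, edgeR adjusted p = 0.233). Of 27 SR proteins and partners (median 0.03), 5 had an unadjusted p under 0.05 and edgeR called only Srsf1, lower; DESeq2 called Srsf1, Srsf2 and Rsrc1 lower. The 21 other U1 and RBM proteins had a median of 0.05, with 0 at an unadjusted p under 0.05 and 0 called by DESeq2, and held Tial1 at 0.37 ± 0.16 and Rbm5 at 0.21 ± 0.10 (log2 fold change ± SE). The 16 other RNA helicases had a median of 0.07, with 3 at an unadjusted p under 0.05 and 0 called by DESeq2, and held Ddx54 at 0.27 ± 0.10 and Ddx41 at −0.45 ± 0.17.

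Nuclear RNA decay, which removes transcripts held in the nucleus, was covered by 24 tested genes with a median of −0.05, 6 of them at an unadjusted p under 0.05, and DESeq2 called Srrt higher and Dis3 lower. Srrt, a partner of the cap-binding complex, stood at 0.40 ± 0.12 and the exosome nuclease gene Dis3 at −0.82 ± 0.25 (log2 fold change ± SE, edgeR adjusted p = 0.195 and 0.220). The 16 genes of nonsense-mediated decay had a median of −0.03, with 0 called by DESeq2. An unadjusted p under 0.05 was found for 2, Rnps1 (−0.31 ± 0.11) and the kinase gene Smg1 (0.26 ± 0.09).

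Of 7 nuclear noncoding RNAs tested, 5 had a positive log2 fold change. The negative ones, Pvt1 and Jpx, had low means of 4.27 and 3.60 CPM. An unadjusted p under 0.05 was found for 2. These 2, Neat1 and Kcnq1ot1, were called higher by DESeq2. Neat1, the scaffold of paraspeckles, was at 165, 169 and 112 CPM in WT and at 288 and 262 CPM in SRSF1KO, without overlap (log2 fold change 0.89 ± 0.18, edgeR adjusted p = 0.112). Kcnq1ot1 had a log2 fold change of 0.48 ± 0.15 (edgeR adjusted p = 0.218) and Malat1, an abundant RNA of nuclear speckles named after its value was seen, at 0.06 ± 0.14. Immediate early and stress genes had a median of −0.50 over 21 tested genes, with 10 at an unadjusted p under 0.05, and DESeq2 called Egr1 higher and Zfp36 and Dnajb1 lower. Of the 21 genes 16 were negative, with the chaperone gene Dnajb1 at −0.45 ± 0.09 and Zfp36 at −0.64 ± 0.20 (edgeR adjusted p = 0.0971 and 0.232). Their summed level ran from 3246 to 4940 CPM in WT and was 2768 and 3409 CPM in SRSF1KO, and its part in the members' values was not tested.

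**Figure D5:**
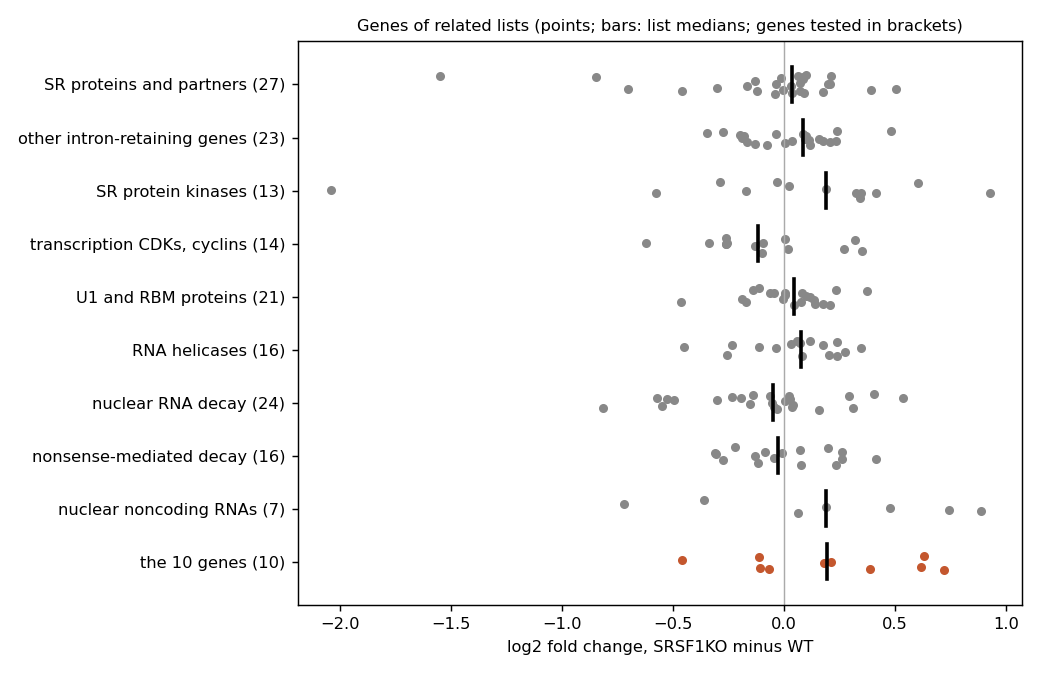
The log2 fold change of SRSF1KO minus WT (horizontal axis) for each tested gene of the related lists (grey points) and of the 10 genes (orange points), with list medians as black bars and members removed from the other lists. The lists drawn leave out the immediate early and stress genes. The lowest median drawn is −0.12, for cyclins and kinases of transcription. The highest are nearly equal, at 0.195 for the 10 genes, 0.188 for SR protein kinases and 0.188 for nuclear noncoding RNAs. The lone grey point near −1.5 in the top row is Srsf1.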

How the data were processed

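The authors deposited raw counts of reads per gene for versioned Ensembl mouse IDs. HTSeq 0.6.1 and mm10 are named, per the submitters' processing notes, beside cutadapt 1.17, FastQC 0.11.5 and DESeq2 1.20.0, without roles. For aligner, annotation release and strand setting, each is not given in the sources used here. Symbols came from a names table (53620 IDs matched, 95 without a symbol). Counts were fitted with edgeR 4.0.16 in R 4.3.3 (TMM, filterByExpr, robust glmQLFit, glmQLFTest, two-sided, group as the only term), with Benjamini-Hochberg adjustment over 17351 genes. Each SE is the fold change's size divided by the root of F. Scripts were tested on simulated data. Alternatives were other scalings and filters, DESeq2 1.42.0, limma-voom (limma 3.58.1), the replicate number as a block, a sex term, and leaving out each library.

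The members and lists were chosen with earlier results of these data known. Named genes were the members, Srsf1, paralogs of members, up to 3 called genes per list or else the 2 with the smallest p, and the 5 nearest profiles to Rsrp1 and to Leng8 among genes of at least 5 CPM without predicted genes and receptor segments. Ddx3y set the sex pattern. Promoter windows came from RefSeq. A related gene list is not reported here.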

Additional observations from a re-analysis of the deposited data

How the results depend on the processing

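Over the 13 alternatives Rsrp1 (log2 fold change 0.56 to 0.69), Leng8 (0.67 to 0.79), Rbm25 (0.59 to 0.69), Clk1, Luc7l3 and Pnisr stayed positive and Ccnl1, Ccnl2 and Ddx5 negative. Clk4 turned to 0.10 without SRSF1KO replicate 2 and ran from −0.23 to 0.10 with 1 library left out. Rsrp1 and Leng8 were each called under 6 of the 13 (adjusted p up to 0.374), Rbm25 under 4 and Ccnl2 under 2. The numbers of genes called higher and lower, 9 and 37 as reported, were 3 and 7 with DESeq2's size factors, 198 and 346 without the filter, 143 and 233 over genes averaging 5 CPM or more, 383 and 633 with DESeq2, 23 and 71 with limma-voom, and 0 and 5 with the sex term. With 1 library left out they ran from 0 to 21 and from 0 to 67; leaving out WT replicate 1, 2 or 3 gave 0 calls, while edgeR gave 1903, 2005 and 2079 an unadjusted p under 0.05. The count of members called higher was 0 with DESeq2's size factors (adjusted p = 0.0515 for both genes) and with the sex term, and 0 to 2 with 1 library left out, at 2 only without SRSF1KO replicate 2. The members' median, 0.19, was 0.22 with upper quartile scaling and 0.12 to 0.29 with 1 library left out. With an SRSF1KO library left out, the other is assumed to vary like WT. With the replicate number as a block 0 genes were higher, 0 lower and 0 members called, with 1640 genes at an unadjusted p under 0.05. Same-numbered libraries did not deviate together (r = −0.025 and 0.034), and no label says that the numbers pair the samples. The cause of these changes was not tested. Each member had 3919 or more counts per library, which bounds read-counting error only, since PCR copies are not independent molecules.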
